A study of Homo sapiens with 6 samples.

Results

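Cadherins and protocadherins are calcium-dependent adhesion proteins whose extracellular part is a chain of cadherin repeats. Their genes were taken from a table of RNA-seq read counts as the protein-coding GENCODE genes with a symbol of the CDH, PCDH, FAT, DCHS or CELSR series, which gave 98 of the 60675 genes in the table. The choice used no measured value. The cells were MRC-5, a long-used line of fibroblasts from fetal human lung that stops dividing after a limited number of doublings. In 3 libraries the cells had been made quiescent, meaning arrested but able to divide again, by contact inhibition over 9 days, and 3 libraries came from control cells, here called young. Both groups were at population doubling 32, and no other agent or allele is named for either. The growth density of the young cells is not given in the sources used here.

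Classical cadherins bind their like on the next cell and hold catenins on the inside, which tie the junction to actin. They are grouped into type I (CDH1 to CDH4 and CDH15) and type II. The clustered protocadherins lie in 3 neighbouring gene arrays on chromosome 5, PCDHA, PCDHB and PCDHG, best known for giving each neuron its own mix of surface proteins. In the PCDHA and PCDHG arrays each variable first exon is spliced to constant exons that the array shares, whereas PCDHB genes have no such constant exons. FAT and DCHS proteins are very large cadherins that bind each other and set tissue growth and polarity, and CELSR proteins act in planar cell polarity.

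Reads were found for 87 of the 98 genes, and 59 passed the filter on low counts and were tested. In edgeR's quasi-likelihood test with Benjamini-Hochberg adjustment over all 15568 tested genes, 26 of the 59 were higher in quiescent cells, 14 were lower and 19 were not called at adjusted p under 0.05. Over all tested genes 71.1% were called, 34.8% higher and 36.3% lower, so the count of members called is close to the background. At least 2-fold, 15 members were higher, where the background is 8.98%, and 2 were lower, where it is 8.33%. The 3 quiescent and 3 young CPM values (read counts relative to the scaled library total) did not overlap in 40 of the 59 members, beside 73.5% of all tested genes. The median log2 fold change, quiescent against young, was 0.16 over the 59 and 0.00 over all tested genes. Of the 59, 9 passed the filter only through the quiescent group, and 1 passed only through the young group. Several of the 9 are among the 15 that were at least 2-fold higher, and the 1 is among the 2 lower. The PCDHB array alone gave 10 of the 15, so the 2-fold counts are only a description. With library size alone as the scaling, the median of all tested genes moved to 0.18, and 31 members were higher and 10 lower. In that setting 7568 of the 15568 tested genes were called higher and 3889 lower. The subfamilies differed more than these totals show, as the plot of fold changes by subfamily lays out.

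**Figure D1:**
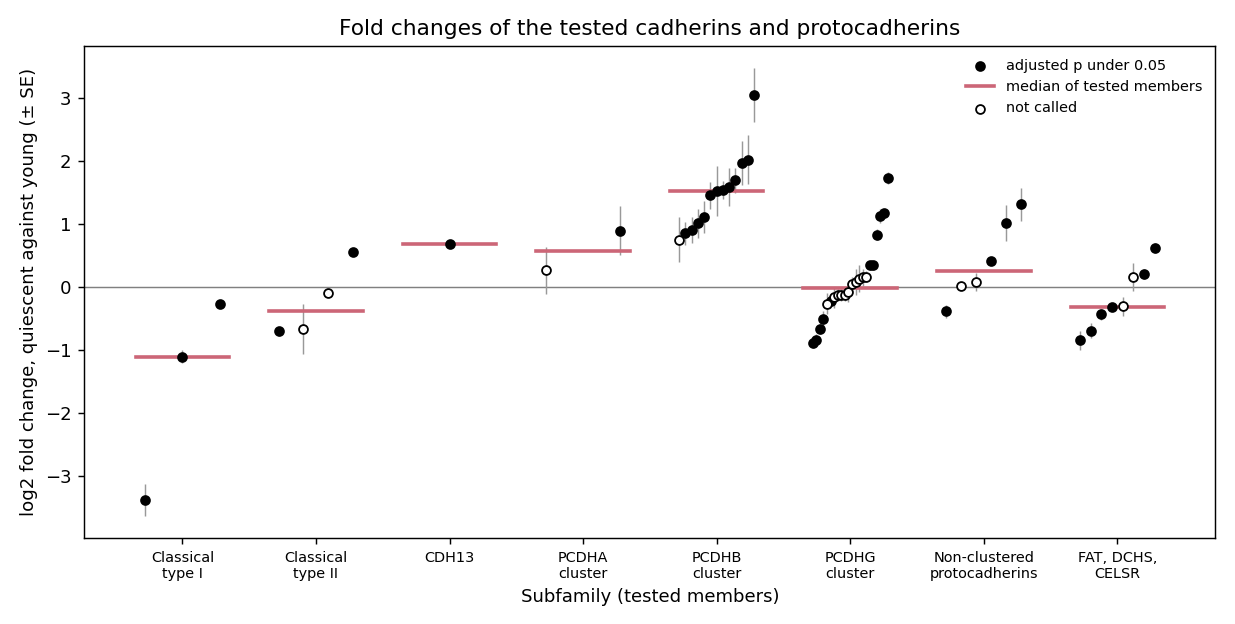
Log2 fold change of each tested member (vertical axis, quiescent against young, bars are SE) by subfamily (horizontal axis), filled where adjusted p is under 0.05 in edgeR's test, with the median as a line. The classical cadherins lie mostly below 0 (median over both types -0.67), the 13 tested PCDHB genes all lie above it, and the 22 PCDHG genes spread on both sides.

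Total counts ranged from 18661639 to 29433764 per library. Per the labels the young libraries had been part of an earlier series and were analysed again, so growth state and set of libraries cannot be told apart in any difference below. Nothing in the labels says that replicates came from separate cultures, and the p-values then reflect only the spread between these libraries, which may be technical. Young library 1.1 was the highest and 1.2 the lowest of the young libraries in several long or abundant members, FAT1, FAT3, FAT4, DCHS1 and PCDHGC3 among them. All 9 fibroblast markers examined were tested, and their summed level was 25085 to 25698 CPM in young and 14636 to 15002 CPM in quiescent libraries. Of the 9, 2 were higher, 6 lower and 1 not called. COL1A1 (8779.6 to 3879.7 CPM) and COL1A2 (8458 to 3962 CPM) made up most of the sum, while LUM (1.23 in log2) and PDGFRB (0.51) were higher and VIM (0.01) was not called. Among markers of other cells, KRT5, SFTPC, SOX10 and CD3E had 0 reads, and PTPRC, the leukocyte antigen CD45, had 2 in each group. Other markers of such cells were expressed. In young libraries the means were 24.9 CPM for KRT18 and 17.8 CPM for KRT8 (epithelial). They were 78.7 CPM for TEK (endothelial) and 80.7 CPM for CNN1 (smooth muscle and pericyte). In quiescent libraries MAP2 (neural) had a mean of 7.35 CPM and CD14 (blood) 2.58 CPM. In bulk RNA, fewer cells that express a gene and less of its RNA per cell cannot be told apart.

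The promoters of the clustered genes carry a short box with the letters CGCT. In the RefSeq promoter table (GRCh38.p14, 250 bases before to 50 after each start), 75 of the 98 genes had an entry. The letters CGCT alone were in 14 of 14 PCDHB windows, 25 of 25 PCDHG windows and 12 of 13 PCDHA windows. They were also in 24584 of all 35116 windows, so they set these genes apart only weakly. The longer word GNCGCTG, searched on both strands, was in 12 of 14 PCDHB, 22 of 25 PCDHG and 6 of 13 PCDHA windows. Of all 35116 windows 8873 held it (25.3%). Its excess was not tested on promoters apart from these, so the counts are a description. The longer word is the box meant below. Some PCDHG genes have more than 1 window, and those of a gene can overlap. On the coding strand and before the start, the base written N was G in all 10 PCDHB genes with the box and T in all 6 PCDHA genes, while in PCDHG genes it was mostly C or T. The stretches below, all on chromosome 5 and the plus strand, are 33 bases long with the box in capitals. They are shown because the genes they precede moved in opposite directions: PCDHB10, PCDHB15, PCDHGB1, PCDHGA10 and PCDHGC3 were higher in quiescent cells, and PCDHGA2, PCDHGB4 and PCDHGB5 were lower.
PCDHB10 (chr5:141192299-141192331): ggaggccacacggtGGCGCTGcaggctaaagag
PCDHB15 (chr5:141245314-141245346): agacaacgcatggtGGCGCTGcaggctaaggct
PCDHGB1 (chr5:141350025-141350057): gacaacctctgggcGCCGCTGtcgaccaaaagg
PCDHGA10 (chr5:141412931-141412963): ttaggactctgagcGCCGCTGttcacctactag
PCDHGC3 (chr5:141475880-141475912): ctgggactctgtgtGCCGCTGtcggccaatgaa
PCDHGA2 (chr5:141338703-141338735): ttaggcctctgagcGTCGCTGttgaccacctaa
PCDHGB4 (chr5:141387617-141387649): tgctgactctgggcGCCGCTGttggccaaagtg
PCDHGB5 (chr5:141397863-141397895): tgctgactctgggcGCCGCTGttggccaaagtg
The box stood in front of genes of both directions, and the stretches of PCDHGB4 and PCDHGB5 are the same letter for letter. No such stretch was found before PCDHB14 and PCDHB5, which were also higher. Several PCDHG genes with the box were not called, PCDHGC4 among them. A match of letters is a description and not a site. The core of the sequence that the insulator protein CTCF binds was in 23 of the 35116 windows on either strand (0.0655%). None of the windows of these genes held it, but so rare a word would be missing from most sets this small. Its absence therefore does not show whether CTCF binds there. The shorter part GGNGGCAG was in 5852 of all windows (16.7%), in 1 of 25 PCDHG windows and in no PCDHB or PCDHA window. Other forms of the CTCF sequence were not searched, and binding of CTCF was not tested.

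All 3 tested type I cadherins were lower in quiescent cells, CDH15 and CDH4 by at least 2-fold and CDH2 by less. CDH15 (ENSG00000129910), M-cadherin of muscle precursor cells, lies on chromosome 16 at 89171767 to 89195492 of GRCh38. Its level was 3.19, 2.74 and 3.05 CPM in the young libraries and 0.242, 0.252 and 0.353 CPM in the quiescent ones. The groups were far apart, with 240 reads against 18, and the log2 fold change was -3.39 ± 0.25 (SE; adjusted p = 6.53e-12), which was 10.5-fold lower. CDH15 passed the filter only through the young group. Smooth muscle and pericyte markers were lower in 3 of 4 tested (summed level 352 to 380.5 CPM in young and 124 to 126 CPM in quiescent libraries). CSPG4 made up most of that sum, DES was not called (-0.09 in log2) and MYH11 had 9 reads in young and 6 in quiescent libraries. The part of such cells in the CDH15 result was not tested.

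CDH4, R-cadherin, stood at 17.2, 18.2 and 14 CPM in young and at 7.31, 7.55 and 7.91 CPM in quiescent libraries. Every quiescent value lay below every young one, and the log2 fold change was -1.11 ± 0.10 (adjusted p = 5.16e-10). CDH2, N-cadherin, the main type I cadherin of fibroblasts, stood at 45.7, 46.6 and 43.3 CPM in young and 36.7, 37.7 and 36.8 CPM in quiescent libraries. The fall was small, -0.28 ± 0.05 in log2 (adjusted p = 1.42e-05), and with library size alone it was -0.10 (adjusted p = 0.061). The remaining type I genes were all but silent: CDH1, E-cadherin of epithelia, had 1 read in the young and 3 in the quiescent libraries, and CDH3, P-cadherin, had 1 and 0. At 3 reads or fewer per group no fold is given for them.

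**Figure D2:**
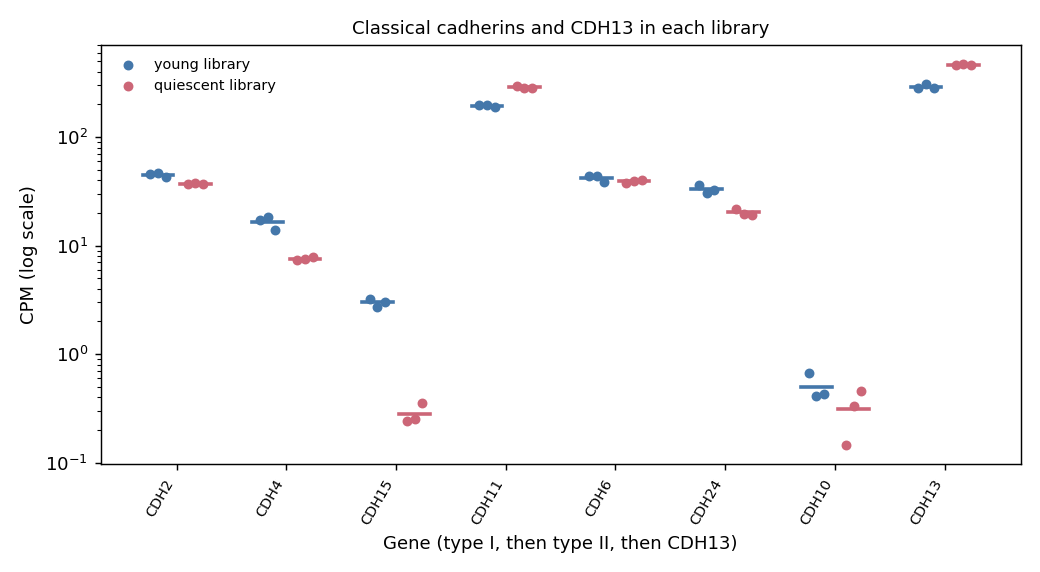
CPM on a log scale (vertical axis) of the tested classical cadherins and CDH13 (horizontal axis) in each young and each quiescent library, with the group mean as a line. CDH11 and CDH13 sit higher in all quiescent libraries, CDH2, CDH4, CDH15 and CDH24 sit lower, and CDH6 and CDH10 overlap.

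Type II cadherins split. CDH11, OB-cadherin, known from mesenchymal cells and fibroblasts, was the most abundant classical cadherin by reads. It stood at 198, 198 and 188 CPM in young and 293, 285 and 285 CPM in quiescent libraries. All quiescent libraries were higher, and the log2 fold change was 0.56 ± 0.04 (adjusted p = 1.73e-12). With the deposited RPKM in place of counts, limma gave 0.28 and 0.30 for the 2 pseudocounts tried (adjusted p = 0.0757 and 0.0784). The number that divides a count in those RPKM varied by gene between quiescent libraries, with a ratio from 0.666 to 1.64 for replicates 1 and 2. A call lost with RPKM, here or below, is therefore weak evidence about the gene. CDH24, which binds catenins as other type II members do, fell from 35.9, 30.3 and 32.6 CPM to 21.9, 19.5 and 19.2 CPM. The groups did not overlap, and the log2 fold change was -0.71 ± 0.07 (adjusted p = 1.94e-09).

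CDH6, K-cadherin, first known from kidney, had 43.7, 43.5 and 38.6 CPM in young and 37.8, 39.5 and 39.9 CPM in quiescent libraries. The groups overlapped through young library 1.2. The log2 fold change was -0.10 with a 95% interval of -0.21 to 0.01 (adjusted p = 0.0951), and without that library it was -0.15 (adjusted p = 0.00843). CDH10, a cadherin of brain, had 0.669, 0.407 and 0.431 CPM in young and 0.145, 0.335 and 0.454 CPM in quiescent libraries. The groups overlapped, and the log2 fold change was -0.67 ± 0.40 (adjusted p = 0.136). CDH5, the VE-cadherin of endothelium, had 1 read in the young and 0 in the quiescent libraries. CDH18 had 39 and 7 reads and CDH20 had 45 and 18, in young and quiescent libraries, and both missed the filter. CDH12, CDH19, CDH22 and CDH8 had no read.

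Over both types, 7 of the 18 classical cadherins were tested, of which 1 was higher, 4 were lower and 2 were not called. The share called was 71.4%, close to the 71.1% of all tested genes. Their median log2 fold change was -0.67, beside 0.00 for all tested genes, and -0.48 over the 6 that passed the filter in both groups. The makeup of the classical cadherin reads shifted towards CDH11, which made up 57.3, 58.1 and 58.6% of them in young and 73.7, 73.0 and 73.0% in quiescent libraries. The share of CDH2 went from 13.5 ± 0.207% to 9.46 ± 0.218% (SD, n = 3 libraries). As a share within a library, this does not depend on the scaling between libraries. The summed level of the 18 was 336 ± 12.9 CPM in young and 392 ± 4.29 CPM in quiescent libraries.

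CDH13, T-cadherin, lacks the usual cytoplasmic part and is held in the membrane by a lipid anchor. Its values were 281, 306 and 281 CPM in young and 458, 475 and 460 CPM in quiescent libraries. No values overlapped, and the log2 fold change was 0.68 ± 0.04 (adjusted p = 1.01e-13). CDH16, CDH17, CDH23 and CDH26 missed the filter: CDH26 had 26 and 21 reads in young and quiescent libraries, CDH17 had 9 and 9, CDH23 had 3 and 11, and CDH16 had none.

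The PCDHB array had a higher summed level in every quiescent library than in any young one. Summed over all 16 genes, whether or not they passed the filter, it gave 8.85, 10.9 and 9.15 CPM in young and 25.5, 24.9 and 24.1 CPM in quiescent libraries, a ratio of 2.58. Each of the 15 genes with a read had a higher mean in quiescent libraries, and PCDHB1 had no read. Of the 13 tested genes 12 were higher, 10 of them at least 2-fold, and no tested gene had a negative fold change. Of all tested genes 34.8% were called higher, and 8.98% were higher by at least 2-fold. Of the 13, 6 passed the filter only through the quiescent group, and these counts are given as a description. The 7 genes that passed in both groups were all higher, with a median log2 fold change of 1.11. Levels were low throughout, with 2373 reads for the whole array in 6 libraries.

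**Figure D3:**
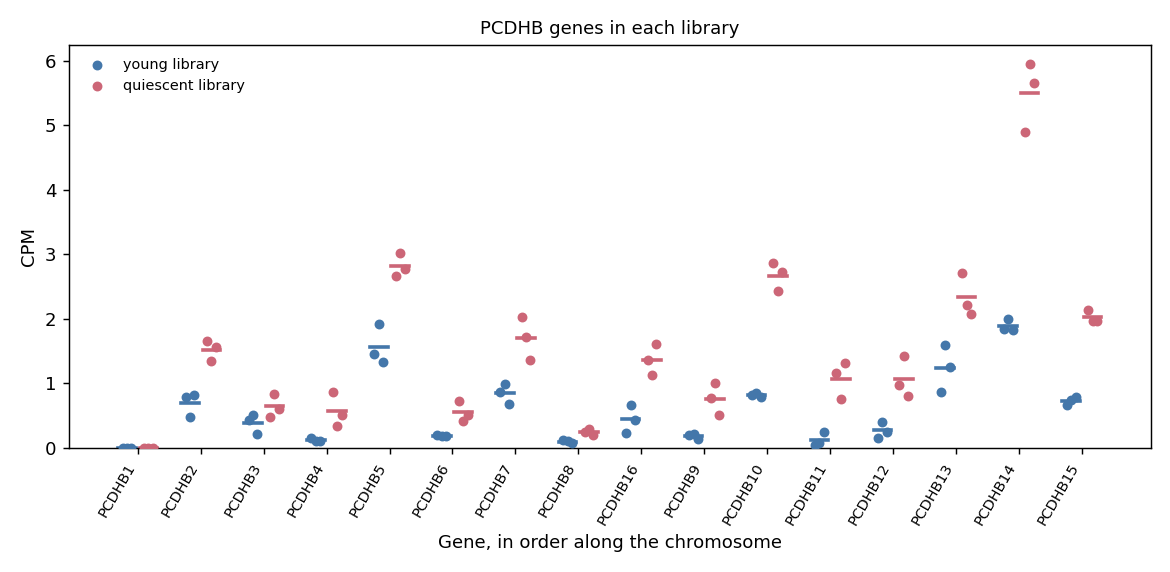
CPM (vertical axis, from 0) of the 16 PCDHB genes in their order along the chromosome, in each young and quiescent library, with the group mean as a line. PCDHB14 is the highest in quiescent libraries (4.89 to 5.95 CPM), and in 12 genes that were tested every quiescent value lies above every young value.

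PCDHB14 (ENSG00000120327; chromosome 5, 141222932 to 141227759) was the most abundant. It stood at 1.85, 2.00 and 1.83 CPM in young and 4.89, 5.95 and 5.65 CPM in quiescent libraries, a log2 fold change of 1.54 ± 0.14 (adjusted p = 3.15e-10). PCDHB10 went from 0.826, 0.850 and 0.789 CPM to 2.86, 2.43 and 2.72 CPM, 3.23-fold higher (adjusted p = 3.13e-08). PCDHB15 went from 0.669, 0.739 and 0.789 CPM to 2.13, 1.97 and 1.97 CPM, 2.74-fold higher (adjusted p = 1.49e-06). In these 3 genes the lowest quiescent library was more than 2-fold above the highest young one.

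PCDHB5 and PCDHB13 were among the more abundant and rose less. PCDHB5 stood at 1.46, 1.92 and 1.33 CPM in young and 2.66, 3.02 and 2.77 CPM in quiescent libraries (0.85 ± 0.18 in log2, adjusted p = 0.000171). With RPKM in place of counts the call of PCDHB5 was lost (adjusted p = 0.0598 and 0.0738 in limma). PCDHB13 stood at 0.865, 1.59 and 1.26 CPM in young and 2.71, 2.22 and 2.07 CPM in quiescent libraries (0.90 ± 0.21, adjusted p = 0.000471). The widest fold change of the array, 3.04 ± 0.43 in log2 for PCDHB11, rests on 10 young and 68 quiescent reads, and PCDHB11 passed the filter only through the quiescent group. PCDHB3 was the tested gene that missed the threshold, at 0.75 ± 0.36 (adjusted p = 0.0647).

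PCDHB genes resemble each other, so reads could be split among them or dropped. Of the 50-base windows of PCDHB10, 33.5% also occur in another gene, mostly PCDHB9, and the figure is 45.1% for PCDHB8 and 24.2% for PCDHB13. Single values of these genes are therefore uncertain. Without the genes that share 20% or more of their windows, an alternative chosen after seeing the data, the log2 ratio of the summed array was 1.4, beside 1.37 with all genes. The pseudogene PCDHB18P of the same array, outside the protein-coding set, was also higher (1.5 ± 0.32, adjusted p = 2.04e-04).

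Coding exons of PCDHB genes are not interrupted by introns, so spliced and unspliced RNA count alike. Single-exon olfactory receptor genes, which share that trait, gave 0.944 to 1.55 CPM in young and 1.31 to 1.5 CPM in quiescent libraries over 184 genes, with 96 and 89 reads. The part of unspliced RNA in the PCDHB result was not tested. Neural markers were tested in 4 of 5 cases, with 1 higher and 2 lower, and SOX10 was at 0 reads. Their summed level was 13.2 to 15.9 CPM in young and 10.7 to 12.5 CPM in quiescent libraries.

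In the PCDHG array genes moved in both directions, and PCDHGC3 took a larger share of the reads. All 22 genes were tested, and 6 were higher, 5 lower and 11 not called, with a median log2 fold change of -0.02. The summed array went from 328, 347 and 282 CPM to 414, 426 and 428 CPM, a ratio of 1.32. Without PCDHGC3 the ratio was 1.07, from 206 ± 18.1 to 221 ± 7.24 CPM (SD, n = 3 per group). The 30 to 53 reads per library of PCDHGC4, against 2691 to 4772 of PCDHGC3, show that reads of the shared constant exons had not been added to each gene.

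PCDHGC3 (ENSG00000240184; chromosome 5, 141475947 to 141512979) is a C-type gene near the end of the array, known to be expressed well beyond neurons. It stood at 116, 126 and 96.6 CPM in young and 201, 200.1 and 203 CPM in quiescent libraries. The quiescent libraries were close together and all above the young ones, and the log2 fold change was 0.83 ± 0.09 (adjusted p = 0.000218). PCDHGC3 made up 35.4 ± 1.11% of the reads of the array in young and 47.6 ± 0.846% in quiescent libraries, a shift of 12.3 percentage points. Its neighbours PCDHGC4 and PCDHGC5, also C-type, gave 0.08 (95% interval -0.34 to 0.51) and -0.08 (-0.40 to 0.24) and were not called.
Because PCDHGC3 is the most abundant clustered gene here, the whole 250 bases before its RefSeq start (chr5:141475716-141475965, plus strand, GRCh38.p14) are given with the first box in capitals.
PCDHGC3 promoter: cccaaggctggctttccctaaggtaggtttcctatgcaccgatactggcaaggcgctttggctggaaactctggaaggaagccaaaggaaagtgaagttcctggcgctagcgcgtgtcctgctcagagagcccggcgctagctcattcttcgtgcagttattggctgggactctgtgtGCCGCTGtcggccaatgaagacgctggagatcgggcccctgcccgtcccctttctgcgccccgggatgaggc

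**Figure D4:**
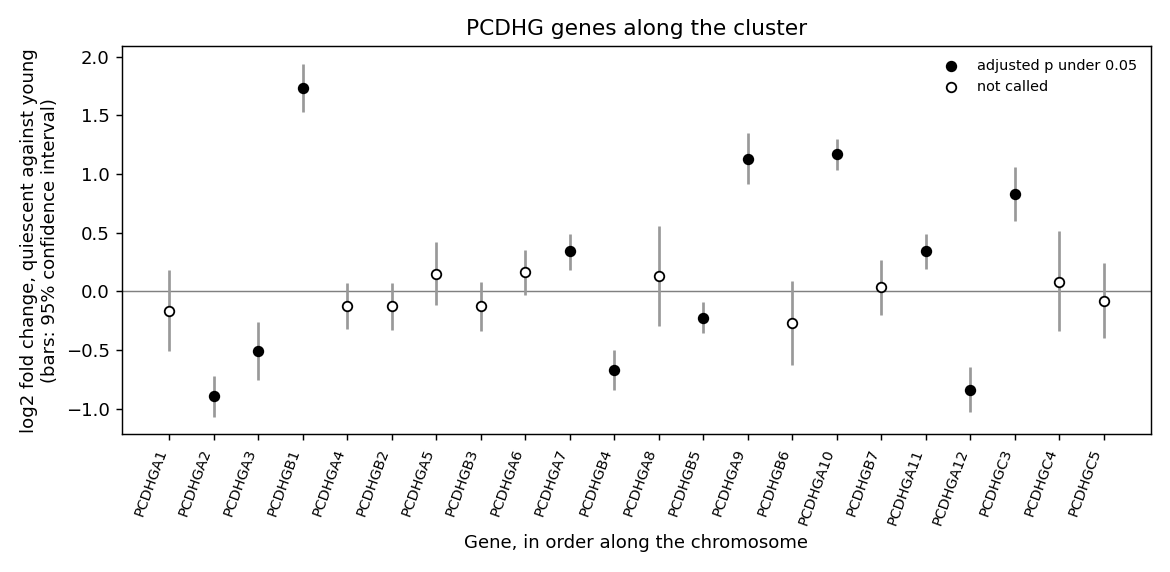
Log2 fold change (vertical axis, quiescent against young, bars are 95% confidence intervals) of the 22 PCDHG genes in their order along the chromosome (horizontal axis), filled where adjusted p is under 0.05. Genes that rose and genes that fell are interspersed along the array, from PCDHGA2 (-0.89) and PCDHGB1 (1.73) near its start to PCDHGA12 (-0.84) and PCDHGC3 (0.83) near its end.

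Among the A and B genes, 3 were at least 2-fold higher. PCDHGB1 had 4.33, 5.10 and 3.80 CPM in young and 13.9, 14.4 and 15.7 CPM in quiescent libraries, 3.32-fold higher (adjusted p = 3.46e-14). PCDHGA10 had 16.8, 15.4 and 14.4 CPM and then 32.3, 35.6 and 36.4 CPM, 2.24-fold higher (adjusted p = 2.22e-14). PCDHGA9 had 4.13, 4.10 and 3.52 CPM and then 8.24, 8.85 and 8.62 CPM, 2.19-fold higher (adjusted p = 5.27e-10). The groups of these 3 genes did not overlap. PCDHGA7 and PCDHGA11 rose by less, 0.34 ± 0.07 each in log2 (adjusted p = 0.000296 and 0.000243), and with RPKM in place of counts neither was called (adjusted p = 0.527 and 0.543 for PCDHGA7, and 0.385 with both pseudocounts for PCDHGA11).

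Of the 22 genes 5 fell. PCDHGB5, the second most abundant of the array, stood at 32.5, 34.8 and 28.6 CPM in young and 26.5, 28.1 and 27.3 CPM in quiescent libraries. Its fall was small (-0.23 ± 0.06, adjusted p = 0.00346), and with library size alone it was -0.05 (adjusted p = 0.524). The falls of PCDHGA2 (-0.89 ± 0.08), PCDHGA12 (-0.84 ± 0.09), PCDHGB4 (-0.67 ± 0.08) and PCDHGA3 (-0.51 ± 0.12) were called under library size alone too. PCDHGA2, directly before PCDHGA3 and PCDHGB1 in the array, stood at 13.6, 13.6 and 13.2 CPM in young and 6.59, 7.38 and 7.71 CPM in quiescent libraries. PCDHGA12, the last of the A genes, stood at 16.6, 18.0 and 14.1 CPM and then at 9.01, 8.55 and 9.73 CPM. Of the windows of PCDHGB4, 21.3% also occur in another gene, mostly PCDHGB5, where the share is 19.9%, so the split between them is uncertain. As shares of the reads of the array, PCDHGA2 went from 4.24 ± 0.394% to 1.71 ± 0.108% and PCDHGB1 from 1.38 ± 0.081% to 3.46 ± 0.172%. By group of genes, the 12 A genes summed to a ratio of 1.15, the 7 B genes to 0.99 and the 3 C genes to 1.75.

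The PCDHA array was close to silent. Its 15 genes had 219 reads in all 6 libraries, and the sum was 0.905, 1.15 and 1.18 CPM in young and 1.89, 2.35 and 1.86 CPM in quiescent libraries, a ratio of 1.89. Only PCDHA4 and PCDHA7 passed the filter, both through the quiescent group alone. PCDHA4, at 0.315, 0.370 and 0.144 CPM in young and 0.533, 0.545 and 0.454 CPM in quiescent libraries, gave 0.89 ± 0.39 (adjusted p = 0.0431). That call rests on 22 and 33 reads. It was lost in DESeq2 (adjusted p = 0.259), and without young library 1.2 the value was 0.58 (adjusted p = 0.204). It was also lost without young library 1.0 and without each quiescent library. PCDHA7 had 0.236, 0.370 and 0.431 CPM in young and 0.388, 0.461 and 0.403 CPM in quiescent libraries. Its groups overlapped, and it was not called (0.26 ± 0.37, adjusted p = 0.543).

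Set side by side, the 7 tested classical cadherins had a median log2 fold change of -0.67, the 13 PCDHB genes 1.52, the 22 PCDHG genes -0.02 and the 2 PCDHA genes 0.58. CDH15, 6 of the 13 PCDHB genes and both PCDHA genes had passed the filter only through the group where they were higher. Over the genes that passed in both groups the median was -0.48 for 6 classical cadherins, 1.11 for 7 PCDHB genes and -0.02 for the 22 PCDHG genes, with no PCDHA gene left. The summed levels had ratios of 1.17, 2.58, 1.32 and 1.89 in that order. For the classical cadherins the median and the sum point in opposite directions, since CDH11 alone holds most of the reads. These figures describe the lists, and the difference between lists was not tested.

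Levels between genes were compared as CPM per kilobase of exonic sequence that no other gene shares. FAT1 had the highest level in young libraries, 82.7 ± 15.1 CPM per kilobase, above PCDH18 at 64.7 ± 4.66, which differed from it by little more than the SD of FAT1. In quiescent libraries PCDH18 came first at 86.0 ± 2.58 and FAT1 was at 66.7 ± 1.93, near PCDHGC3 at 61.9 ± 0.378. CDH13 followed at 42.0 ± 0.839 and CDH11 at 21.9 ± 0.365 in quiescent libraries, from 26.2 ± 1.31 and 14.8 ± 0.437 in young ones. CDH2, at 9.39 ± 0.359 in young and 7.71 ± 0.116 in quiescent libraries, was below CDH11 in both groups. By this measure PCDHGC3 had a higher level per length than any classical cadherin in either group. The length joins all annotated exons of a gene, 13127 bases for CDH11 and 3251 for PCDHGC3. The transcripts present may be shorter, which would change the order, and their lengths were not measured.

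Non-clustered protocadherins have genes of their own outside the arrays. Of 13, 6 were tested, 3 higher, 1 lower and 2 not called (66.7% called, beside 71.1% of all tested genes). PCDH18, which binds the adaptor DAB1 in mouse, was by far the most abundant, at 416, 468 and 413 CPM in young and 595, 566 and 565 CPM in quiescent libraries. The groups did not overlap, and the log2 fold change was 0.41 ± 0.05 (adjusted p = 2.27e-08). PCDH9 stood at 8.62, 7.50 and 7.46 CPM in young and 5.47, 6.33 and 6.10 CPM in quiescent libraries (-0.39 ± 0.10, adjusted p = 0.00137), which missed the threshold with library size alone (adjusted p = 0.0674) and with log2(RPKM + 1) (adjusted p = 0.0522). PCDH7 stood at 26.8, 29.6 and 26.3 CPM and then 26.1, 27.3 and 30.4 CPM. Its groups overlapped, and the 95% interval of its log2 fold change was -0.11 to 0.15, although library size alone gave a call at 0.20 (adjusted p = 0.0072). PCDH10 gave 0.08 with an interval of -0.21 to 0.38.

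PCDH1, a protocadherin of airway epithelium, was low but higher in quiescence, at 0.433, 0.665 and 0.574 CPM in young and 1.4, 1.43 and 1.36 CPM in quiescent libraries (1.31 ± 0.26, adjusted p = 6.37e-05). Epithelial markers were lower in all 4 tested, at a summed 56.3 to 58.1 CPM in young and 28.4 to 29.9 CPM in quiescent libraries. PCDH12, first described in vascular endothelium, rose from 0.472, 0.370 and 0.431 CPM to 0.872, 0.839 and 0.857 CPM (1.01 ± 0.29, adjusted p = 0.00384) and passed the filter only through the quiescent group. In DESeq2 PCDH12 was not called (adjusted p = 0.0789), nor was it with RPKM (adjusted p = 0.267 and 0.137 in limma). Endothelial markers were higher in all 3 tested of 6, at a summed 75.8 to 86.6 CPM in young and 94.7 to 96.9 CPM in quiescent libraries. TEK (0.18 in log2) made up most of that sum. KDR (0.394 to 3.1 CPM, 2.94 in log2) and VWF (0.803 to 3.27 CPM, 2.03) rose more. The untested ones did not rise: PECAM1 had 4 reads in young and 1 in quiescent libraries, CLDN5 had 12 and 5, and CDH5 was near 0. The part of endothelial cells in the PCDH12 result was not tested. PCDH15, PCDH20 and PCDH8 had no read, PCDH11X had 1 and 0 reads, PCDH17 had 0 and 1 and PCDH19 had 1 and 8, in young and quiescent libraries.

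**Figure D5:**
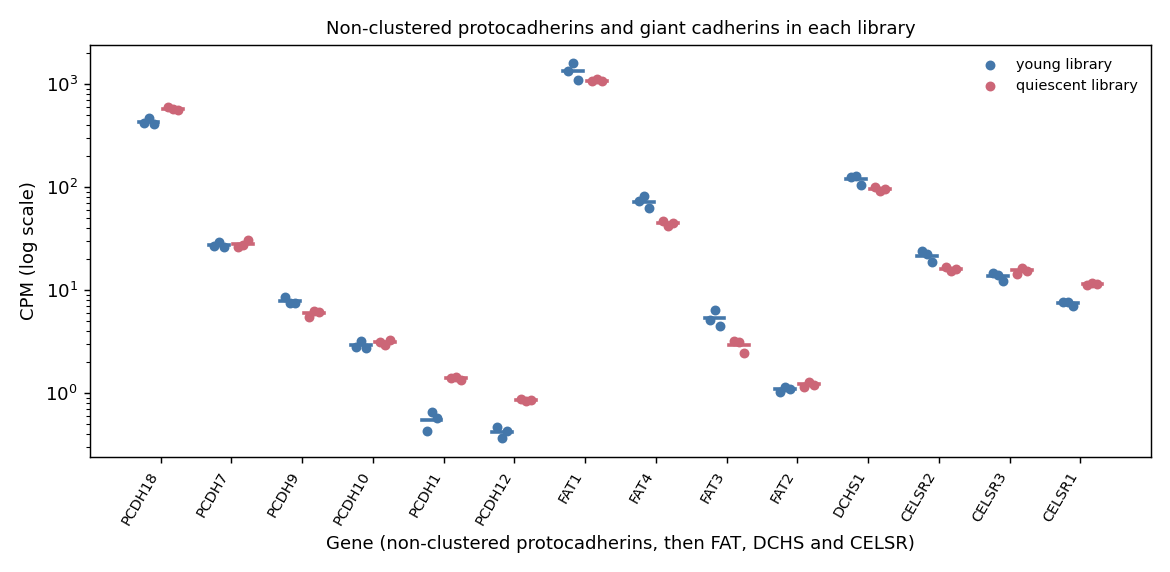
CPM on a log scale (vertical axis) of the tested non-clustered protocadherins and of the FAT, DCHS and CELSR genes (horizontal axis) in each young and quiescent library, with the group mean as a line. PCDH18 and CELSR1 sit higher and FAT3, FAT4, DCHS1 and CELSR2 lower in all quiescent libraries, while the young values of FAT1 spread from 1096 to 1584 CPM.

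Of the 9 giant cadherins 8 were tested, 2 higher, 4 lower and 2 not called, with a median log2 fold change of -0.31. The share called was 75.0%, near the 71.1% of all tested genes. FAT4, the receptor of DCHS1, stood at 72.9, 82.1 and 62.0 CPM in young and 47.2, 41.9 and 44.4 CPM in quiescent libraries, a log2 fold change of -0.70 ± 0.12 (adjusted p = 0.00217). DCHS1, its ligand, stood at 125, 129 and 105 CPM and then 100.4, 92.5 and 95 CPM (-0.32 ± 0.07, adjusted p = 0.0021). The groups of both genes were apart. The call of DCHS1 was lost with library size alone (adjusted p = 0.0548) and with RPKM (adjusted p = 0.0774 and 0.0737). DCHS2 had 0 and 8 reads and missed the filter.

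FAT3 stood at 5.11, 6.40 and 4.52 CPM in young and 3.25, 3.15 and 2.47 CPM in quiescent libraries (-0.85 ± 0.15, adjusted p = 1.64e-05). FAT1 was the most abundant of all members by reads, at 1331, 1584 and 1096 CPM in young and 1059, 1116 and 1064 CPM in quiescent libraries. Young library 1.2 lay within the quiescent range, and FAT1 was not called (-0.31, 95% interval -0.71 to 0.09, adjusted p = 0.131). The fall was called by limma-voom (adjusted p = 0.00482), without young library 1.1 (-0.17, adjusted p = 0.018) and without young library 1.2 (-0.42, adjusted p = 4.78e-04). FAT2 stayed near 1 CPM (0.16, 95% interval -0.29 to 0.62).

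The CELSR genes went separate ways. CELSR1 rose from 7.71, 7.73 and 7.03 CPM to 11.2, 11.7 and 11.5 CPM (0.61 ± 0.08, adjusted p = 4.64e-07). CELSR2 fell from 23.9, 22.3 and 18.9 CPM to 16.8, 15.2 and 15.9 CPM (-0.44 ± 0.08, adjusted p = 4.06e-05), a call lost with RPKM (adjusted p = 0.392 and 0.457). CELSR3 was called higher at 0.20 ± 0.08 (adjusted p = 0.0268), but its groups overlapped. The call of CELSR3 was lost in DESeq2 (adjusted p = 0.171), without young library 1.2 (0.13, adjusted p = 0.126) and without quiescent replicate 2 (0.14, adjusted p = 0.172).

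Most catenins and junction adaptors, a list that also holds the nectin adhesion receptors, were lower. Of 13 tested genes 11 fell and 1 rose, where the background is 36.3% lower and 34.8% higher. The median log2 fold change was -0.26, and not every gene of the list binds cadherins directly. With library size alone 6 were lower and 2 higher, with a median of -0.08. Their summed level was 3308 to 3472 CPM in young and 2666 to 2706 CPM in quiescent libraries. CTNNAL1, a relative of alpha-catenin, fell by 1.84 on the log2 scale (SE 0.05, adjusted p = 1.33e-21), and NECTIN3, an adhesion receptor of the same junctions, fell by 1.36 (SE 0.04, adjusted p = 6.40e-20). CTNNB1, beta-catenin, went from 382 ± 5.81 to 287 ± 3.43 CPM (SD, n = 3; adjusted p = 3.21e-10 in edgeR). JUP, plakoglobin, was the gene that rose (0.76 ± 0.04, adjusted p = 1.06e-14).

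Among desmosome genes 5 of 12 were tested, 2 higher and 3 lower, too few to set against the background. DSG2, a desmosomal cadherin, had a log2 fold change of -1.34 ± 0.06 (adjusted p = 5.62e-15), and that of the plaque protein gene DSP was -0.92 ± 0.09 (adjusted p = 7.90e-10). PKP2 gave 0.96 ± 0.39 (adjusted p = 0.0323) at under 1 CPM, and PERP, a tetraspan protein of desmosomes and a target of p53, gave 0.64 ± 0.04 (adjusted p = 2.63e-13). Of the cadherin-related genes outside the set, 2 of 5 tested were lower and 3 were not called. The lower ones were CLSTN1 (-0.12, adjusted p = 0.0124) and CDHR2 (-1.16, adjusted p = 0.00121).

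Repressors of the E-cadherin gene were all tested, 3 of 9 higher and 4 lower, near the background of 34.8% and 36.3%. SNAI1 fell from 20.7 ± 1.60 to 3.24 ± 0.419 CPM (SD, n = 3; adjusted p = 3.64e-18 in edgeR), while ZEB2 rose from 87.3 ± 7.51 to 167 ± 2.26 CPM (adjusted p = 7.23e-14). KLF8 rose at under 1 CPM (1.34 ± 0.40, adjusted p = 0.00415). CDH1, their shared target, had the 1 and 3 reads given above. Of 9 proteases that cut cadherins from the membrane, 4 were higher and 3 lower, also near the background, and 7 were higher and 1 lower with library size alone. Among them were MMP14 (0.86 ± 0.04, adjusted p = 1.66e-16) and ADAM15 (-1.03 ± 0.04, adjusted p = 7.21e-17).

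Genes known to act on promoter choice in the protocadherin arrays moved both ways, 6 higher and 5 lower of 15, with a median of 0.04. These counts are near the background of 34.8% higher and 36.3% lower, and with library size alone they were 10 and 3. SETDB1, a histone methyltransferase, rose by 0.43 ± 0.06 (adjusted p = 7.78e-07) and DNMT3B, a DNA methyltransferase, fell by 0.57 on the log2 scale (SE 0.09, adjusted p = 4.93e-06). CTCF rose by 0.41 ± 0.05 (adjusted p = 1.63e-08), and the cohesin subunit SMC1A fell by 0.30 (SE 0.05, adjusted p = 2.79e-06). SMCHD1, a repressor of these arrays in mouse, fell by 0.31 (SE 0.05, adjusted p = 1.78e-06). Partners of the Fat, Dachsous and planar polarity genes were higher in 5 and lower in 7 of 15 tested, and in 8 and 4 with library size alone. Among them were RERE, an atrophin, at 0.68 ± 0.05 (adjusted p = 9.09e-11) and FJX1, whose fly homologue is a Golgi kinase of Fat and Dachsous, at -0.65 ± 0.06 (adjusted p = 1.33e-10). ANKRD6, a planar polarity gene related to fly diego, rose from 0.386 ± 0.0785 to 1.16 ± 0.176 CPM (SD, n = 3; 1.57 ± 0.29 in log2, adjusted p = 3.64e-05 in edgeR). Kinases and actin regulators linked to protocadherins were higher in 4 and lower in 5 of 12, and in 6 and 2 with library size alone. Neither list's counts stood far from the background. PTK2B, a kinase that clustered protocadherins bind, rose by 0.93 ± 0.12 (adjusted p = 2.42e-07), its relative PTK2 fell by 0.37 (SE 0.04, adjusted p = 4.40e-09) and CYFIP2, of the WAVE complex, rose by 0.72 ± 0.06 (adjusted p = 1.33e-11). Over these 8 lists 25 genes were higher and 40 lower, and with library size alone 41 were higher and 23 lower. All 15568 tested genes shifted the same way, from 5412 higher and 5652 lower to 7568 higher and 3889 lower.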

How the data were processed

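Raw read counts for 60675 Ensembl gene IDs in 6 libraries were deposited by the authors, with RPKM values for the same genes in a separate deposited table. Per the labels' protocols, total RNA was used with Illumina's TruSeq RNA kit v2. Strand is not marked by it, so reads of a gene and of one overlapping it on the other strand cannot be told apart. Per the submitters' processing notes, the tools were featureCounts 1.4.6-p4, STAR 2.4.1d and bcl2fastq 1.8.4, with build GRCh38. For the annotation release, the strand setting and reads with several matches, the settings were not given in the sources used here. In the deposited RPKM table the number that divides a count was identical in the 3 young libraries over 1953 well-covered genes, although their totals differ. Between quiescent replicates 1 and 2 its ratio varied by gene from 0.666 to 1.64 in a pattern that repeats every 14 rows. RPKM values are therefore not compared between groups except as an alternative.

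Symbols, gene types and 1-based coordinates are from GENCODE 29, in which 57055 IDs matched. The young columns match the young group by name but no single sample, and are called 1.0, 1.1 and 1.2. PCDH11Y is counted among the 98 genes and not reported singly.

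The tests were run on counts in edgeR 4.0.16 under R 4.3.3 (filterByExpr with a minimum count of 10, TMM, robust quasi-likelihood fit on group alone, adjustment over 15568 genes), and every adjusted p is from this test unless another is named. CPM use TMM-scaled totals, and the biological coefficient of variation was 3.84%. Reads carry no molecular identifiers. The procedure was also run on simulated counts of 15356 genes, with 66 changed at each of 1.5-fold, 2-fold and 4-fold. It found 65.2%, 78.8% and 98.5% of these, and 4.19% of its calls were unchanged genes. In the data 71.1% of genes were called, so the simulated setting does not match them. Alternatives used DESeq2 1.42.0, limma 3.58.1 (voom, and log2(RPKM + 1) or log2(RPKM + 0.1)), other scalings and filters, and omission of each library.

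The members, gene lists and sequence motifs were chosen with earlier results of these data known. Values in every library were given for members of subfamilies with 5 or fewer tested genes, and otherwise for the 3 most abundant and the 3 called ones with the largest fold change at a mean of 1 CPM or more. Of each list the 2 largest called changes at that level were named, and the largest in the minority direction at any level. PCDHB3, PCDHB11, PCDHGA2, PCDHGA3, PCDHGA7, PCDHGA11, PCDHGA12, PCDHGB4, PCDHGC4, PCDHGC5, PCDH1, PCDH10, PCDH12, FAT2, CELSR2, CELSR3, the markers given singly, CTNNB1, PERP, CDHR2, CTCF, SMC1A, SMCHD1, PTK2 and the untested genes given singly were named after their values were seen. Sequences are from RefSeq.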

Additional observations from a re-analysis of the deposited data

How the results depend on the processing

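Of the 59 tested members, 38 kept their direction and their call in all those of the 13 settings based on counts in which they were tested. No paired analysis was possible because the young columns could not be matched to numbered samples. With library size alone the median log2 fold change was -0.50 for the classical cadherins, 1.70 for PCDHB and 0.16 for PCDHG, the log2 ratio of the summed array was 1.55 for PCDHB and 0.59 for PCDHG, and the genes of the associated lists were 41 higher and 23 lower. In that setting 7568 of all tested genes were higher and 3889 lower. The median of the classical cadherins was -1.07 without a filter and -0.47 at 1 CPM or more in 3 libraries, where that of PCDHB was 1.30; these settings test other genes. With log2(RPKM + 1) and log2(RPKM + 0.1), 2788 and 2880 of all genes were called higher, 11 and 11 of the list genes were higher, and the median of PCDHB was 0.21 and 0.87; the cause was not tested. Leaving out 1 library at a time gave medians of -0.99 to -0.63 for the classical cadherins (-0.99 to -0.74 over the quiescent libraries), 1.42 to 1.58 for PCDHB and -0.09 to 0.04 for PCDHG, 25 to 30 members higher and 15 to 19 lower. Reversed values among named genes, none of them called in the main test, were CDH6 (0.08 with library size alone, 0.01 and 0.00 with the RPKM settings), PCDH10 (-0.07 and -0.25 with RPKM), PCDHGC4 (-0.05 to 0.29 without each young library), PCDHGC5 (0.10 with library size alone, -0.21 to 0.07 without each quiescent replicate) and PCDH7 (0.00 without a filter, -0.32 and -0.47 with RPKM, -0.01 without young library 1.2 and -0.03 to 0.07 without each quiescent replicate). Omission of members with a protein near-identical to another was not run; the omission by shared windows, added after seeing the data, took its place. Depth limits PCDHA above all, with 23 to 56 reads per library for the whole array.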
